A study of Mus musculus with 4 samples.

Results

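Regional patterning factors are transcription factors that give each stretch of the embryonic neural tube its identity along the head-to-tail axis. In neurons of lines named N/D and N/D/S, 9 of them were followed: Otx1, Otx2, Six3, Lhx2, Emx2, Pax6 and Rax, which act in the forebrain and eye field, and En1 and En2, the engrailed factors of the midbrain and anterior hindbrain. They were taken by gene symbol from the 34968 symbols shared by all libraries, and all 9 were found. Both lines derive from one mouse ES cell line of strain C57/BL6 that carries Dlx6-Cre and the Ai9 reporter, so that subpallial neurons turn tdTomato+. N/D cells express an introduced Nkx2-1 under Nestin control together with tTA, which drives a TRE-Dlx2 transgene, and in N/D/S cells the TRE transgene also carries V5-tagged St18. Transfected colonies were selected clonally, and how many clones stand behind the libraries is not given in the sources used here. Both lines were grown as embryoid bodies with the Wnt inhibitor XAV-939 and the hedgehog agonist SAG, and tdTomato+ cells were sorted on day 12. Each line gave 2 libraries, and nothing states that they came from separate cultures, so p-values measure only the spread between these libraries.

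Head-to-tail identity is set by opposing territories. Otx2 is required for the forebrain and midbrain and meets Gbx2 at the midbrain-hindbrain boundary, where Fgf8 and Wnt1 are produced and the engrailed genes are switched on. Six3 represses Wnt1 in the anterior forebrain, Lhx2 and Emx2 pattern the dorsal telencephalon, Rax and Pax6 act in the eye field, and Pax6 also opposes Nkx2-1 territory in the telencephalon.

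Values are TPM, a transcript abundance scaled to a common total per library. They are normalized for transcript length and can be compared between genes of a library. Over the 12975 genes that reached 1 TPM in 2 or more libraries, Pearson's r across genes, which are not independent replicates, lay between 0.730 and 0.757 for the library labelled N/D replicate 1 with each of the others. It lay between 0.876 and 0.947 among those others. N/D replicate 1 also had 13426 symbols above 0 TPM, against 17118 to 20750 elsewhere, and 613 of the 6139 genes that reached 10 TPM in each other library were listed at 0 there. The fold change of each tested member is therefore also given without it. St18, the factor that distinguishes the lines, was at 44.4 and 15.9 TPM in libraries carrying the N/D/S label, against 28.5 and 26.6 TPM under the N/D label, in replicate order. It did not separate the lines, and each direction below rests on the labels. The introduced Nkx2-1 and Dlx2 were present in every library, at 16.5 to 48.6 and 71.1 to 259.0 TPM, and the values do not tell introduced from endogenous transcripts. Neuronal identity was checked on 6 markers, which summed to 3059 to 4872 TPM per library, with Tubb3, a neuronal tubulin, at 1509 to 2774 TPM. The 8 subpallial markers summed to 436.5 to 1134 TPM, and they varied unevenly. Dlx1, the highest, had 97.95 to 519.9 TPM and Dlx5, the steadiest, 136.3 to 206.2 TPM. In N/D replicate 1, Slc32a1, the vesicular GABA transporter, had 1.55 TPM against 10.9 to 13.9 TPM elsewhere, and Sp9 was listed at 0 against 11.5 to 37.4 TPM elsewhere.

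The engrailed genes and the Otx genes are pairs of close paralogs, so their coding homeoboxes are shown to let the reader judge how far reads could be mistaken between them. Capitals mark the longest stretch that is identical between the paralogs. The homeobox of En1 lies in a single exon on the plus strand of chr1:120606917-120607096 and that of En2 in a single exon on the plus strand of chr5:28170163-28170342, both on GRCm38. They match at 150 of 180 bases (83.3%), with a longest identical stretch of 17 bases.
En1: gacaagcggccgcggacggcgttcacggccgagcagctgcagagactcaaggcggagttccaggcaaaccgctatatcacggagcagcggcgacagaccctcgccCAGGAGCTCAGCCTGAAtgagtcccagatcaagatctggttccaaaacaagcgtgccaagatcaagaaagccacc
En2: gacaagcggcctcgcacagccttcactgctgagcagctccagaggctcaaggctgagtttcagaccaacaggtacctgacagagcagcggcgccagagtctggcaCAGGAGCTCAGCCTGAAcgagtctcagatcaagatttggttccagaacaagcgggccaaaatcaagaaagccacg
The homeobox of Otx1 is split over 2 exons on the minus strand of chr11:21997017-21998507 and that of Otx2 over 2 exons on the minus strand of chr14:48659285-48661436. They match at 144 of 180 bases (80.0%), with a longest identical stretch of 18 bases.
Otx1: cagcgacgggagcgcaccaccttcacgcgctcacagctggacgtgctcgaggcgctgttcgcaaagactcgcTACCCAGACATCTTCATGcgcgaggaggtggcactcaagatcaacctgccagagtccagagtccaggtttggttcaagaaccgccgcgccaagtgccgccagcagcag
Otx2: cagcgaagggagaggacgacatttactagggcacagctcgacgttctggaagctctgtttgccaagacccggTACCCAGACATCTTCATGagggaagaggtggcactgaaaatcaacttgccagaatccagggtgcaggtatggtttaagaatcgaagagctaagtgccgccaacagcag
Over all annotated GENCODE M21 transcripts, En1 and En2 shared 0 stretches of 31 bases, and Otx1 and Otx2 shared 0. Of the distinct 31-base stretches of En1, 0.0771% also occurred in transcripts of any other gene on the same strand, and for En2 the share was 0.258%.

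En1 was among the highest of the 9 factors in the libraries numbered 1, and its TPM was lower in those numbered 2. It had 30.0 TPM in N/D replicate 1 and 16.2 TPM in N/D/S replicate 1. In the libraries numbered 2, En1 had 5.68 TPM in N/D and 3.03 TPM in N/D/S. Both libraries numbered 1 thus lay above both numbered 2, while the lines overlapped. Within each replicate number En1 was lower under the N/D/S label, the log2 differences being −0.85 and −0.73. The mean was 9.60 ± 9.30 TPM (SD, n = 2) for N/D/S against 17.9 ± 17.2 TPM (SD, n = 2) for N/D. The log2 fold change, taken as N/D/S relative to N/D throughout, was −0.79 (SE 1.25, 95% interval −3.75 to 2.17, adjusted p = 1 from limma), less than the residual SD of 1.52 between libraries of a line. Without N/D replicate 1 it was 0.32, and without N/D/S replicate 2 it was 0.25. It was −1.90 when N/D replicate 2 was left out and −1.84 when N/D/S replicate 1 was. En1 lies on chromosome 1 of GRCm38 from 120602418 to 120607992, and the 736 tested genes of that chromosome had a median log2 fold change of −0.04, against 0.28 for the 12133 tested genes placed on others. No other chromosome was taken singly, and the part of that difference in the En1 value was not tested.

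En2 did not exceed 1.61 TPM, and its order of libraries differed from that of En1. It had 1.61 TPM in N/D/S replicate 1, 1.18 TPM in N/D replicate 2, 0.557 TPM in N/D/S replicate 2 and 0.00467 TPM in N/D replicate 1. In the library with the most En1, En2 was thus close to 0. The log2 fold change of En2 was 0.45 (SE 1.02, 95% interval −1.96 to 2.85, adjusted p = 1 from limma), and −0.11 without N/D replicate 1. It was 1.01 when N/D replicate 2 was left out and 1.53 with a pseudocount of 0.1. En2 lies on chromosome 5 from 28165694 to 28172166.

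Among the forebrain factors, Six3, an early determinant of the anterior forebrain and eye, had the highest mean level. It lies on chromosome 17 from 85613608 to 85629302. Its level was 18.7 TPM in N/D/S replicate 1, 18.9 TPM in N/D/S replicate 2 and 29.8 TPM in N/D replicate 2. In N/D replicate 1, Six3 had 2.06 TPM. The N/D/S libraries thus lay close together, between the widely spaced N/D libraries. The mean was 18.9 ± 0.146 TPM (SD, n = 2) for N/D/S against 15.95 ± 19.6 TPM (SD, n = 2) for N/D. The log2 fold change was 1.03 (SE 1.30, 95% interval −2.05 to 4.11, adjusted p = 1 from limma) and changed sign to −0.64 without N/D replicate 1. It was 2.70 when N/D replicate 2 was left out. Over the 4 libraries and among the 12975 genes tested, those nearest to Six3 in log2(TPM + 1) were Raly, Khdrbs2 and Zfp932, with mean absolute differences of 0.13, 0.19 and 0.20.

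Pax6, a paired-box factor of dorsal telencephalic progenitors and the eye, was the one forebrain member that was highest in N/D replicate 1, at 25.4 TPM. The gene lies on chromosome 2 from 105668900 to 105697364. Pax6 had 13.7 TPM in N/D replicate 2, 14.1 TPM in N/D/S replicate 1 and 7.33 TPM in N/D/S replicate 2. The lines overlapped narrowly, since N/D/S replicate 1 was slightly above N/D replicate 2. Within both replicate numbers Pax6 was lower under the N/D/S label, the log2 differences being −0.81 and −0.82. The mean was 10.7 ± 4.77 TPM (SD, n = 2) for N/D/S against 19.5 ± 8.28 TPM (SD, n = 2) for N/D. The log2 fold change was −0.81 (SE 1.01, 95% interval −3.19 to 1.57, adjusted p = 1 from limma), and −0.39 without N/D replicate 1. With any library left out it ranged from −1.24 to −0.38. Being lower in N/D/S within both numbers held for 2 of the 7 members tested, En1 and Pax6, beside 17.9% of all genes tested. Having both libraries numbered 1 above both numbered 2 also held for En1 and Pax6, beside 14.8% of all genes tested, and the reverse held for Six3 alone, beside 14.7%. The labels do not say what a replicate number stands for.

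**Figure D1:**
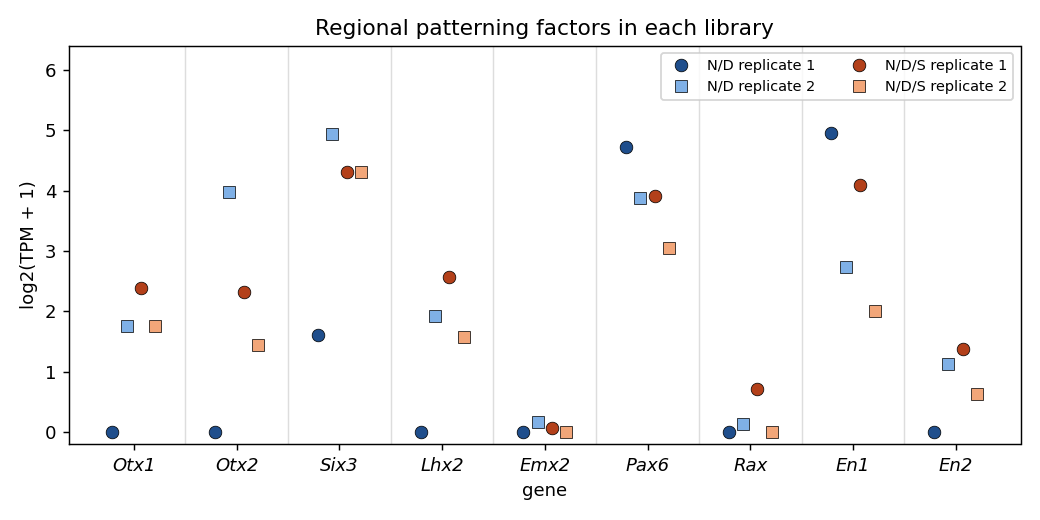
Level of each factor in each library as log2(TPM + 1), with circles for replicate 1, squares for replicate 2, blue shades for N/D and orange to red shades for N/D/S. En1 and Pax6 are highest in N/D replicate 1, where Otx2, Lhx2, Emx2 and Rax are listed at 0.

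Otx2, which is needed for forebrain and midbrain formation, had the widest log2 gap of any member between the N/D libraries. It lies on chromosome 14 from 48657677 to 48673819. Otx2 had 14.7 TPM in N/D replicate 2 and was listed at 0 in N/D replicate 1. N/D/S replicate 1 had 4.03 TPM and N/D/S replicate 2 had 1.72 TPM, between these values. The mean was 2.88 ± 1.63 TPM (SD, n = 2) for N/D/S against 7.36 ± 10.4 TPM (SD, n = 2) for N/D. The log2 fold change was −0.10 (SE 1.45, 95% interval −3.52 to 3.32, adjusted p = 1 from limma), and it was −2.09 without N/D replicate 1. Leaving out N/D replicate 2 instead gave 1.89. Otx1, its paralog in the forebrain and sense organs, lies on chromosome 11 from 21994764 to 22002897. Otx1 was at 4.25 and 2.39 TPM in N/D/S, against 0.00602 and 2.38 TPM in N/D. Otx1 was the only member whose lines did not overlap, through values of 2.39 and 2.38 TPM in replicate 2, and 8.69% of all genes tested were arranged in that way. Its log2 fold change was 1.20 (SE 1.07, 95% interval −1.34 to 3.74, adjusted p = 1 from limma). It was 0.32 without N/D replicate 1, 2.07 when N/D replicate 2 was left out and 2.69 with a pseudocount of 0.1. No member had both N/D/S libraries below both N/D libraries, an arrangement of 8.23% of the genes tested.

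Lhx2, a LIM-homeodomain factor that selects cortical identity, lies on chromosome 2 from 38339281 to 38369733. Lhx2 was at 4.97 TPM in N/D/S replicate 1, 1.97 TPM in N/D/S replicate 2 and 2.78 TPM in N/D replicate 2. It was listed at 0 in N/D replicate 1. The log2 fold change was 1.11 (SE 1.11, 95% interval −1.52 to 3.75, adjusted p = 1 from limma). It was 0.15 without N/D replicate 1, 0.61 when N/D/S replicate 1 was left out, 2.07 when N/D replicate 2 was left out and 2.59 with a pseudocount of 0.1. Emx2, a dorsal telencephalic factor on chromosome 19 from 59458372 to 59465357, had 0.0480 TPM in N/D/S replicate 1 and 0.125 TPM in N/D replicate 2. Rax, which sets up the eye field, had 0.635 TPM in N/D/S replicate 1 and 0.103 TPM in N/D replicate 2. Emx2 was listed at 0 in N/D replicate 1 and N/D/S replicate 2, and so was Rax. Emx2 and Rax did not reach 1 TPM in 2 libraries and were not tested. Of the 7 members tested, Otx2 and Lhx2 were listed at 0 in N/D replicate 1, beside 26.1% of all genes tested. Annotated transcripts of the opposite strand held 2.88% of the 31-base stretches of Otx2, 3.94% of those of Six3, 7.81% of those of Emx2 and 26.4% of those of Rax. Whether reads were assigned by strand is not given in the sources used here, so reads of these 4 genes and of their opposite-strand partners may not be told apart. Otx2 also shared 3.23% of its stretches with a transcript of the same strand.

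Shares of the summed level were compared next. En1 and En2 together made up 52.3% of the summed TPM of the 9 factors in N/D replicate 1 and 27.6% in N/D/S replicate 1. In replicate 2 they made up 9.74% for N/D and 9.97% for N/D/S. Six3 accounted for 3.59% and 42.3% of the sum in N/D, in replicate order, and for 29.0% and 52.7% in N/D/S. Pax6 accounted for 44.1% and 19.4% in N/D, and for 21.8% and 20.4% in N/D/S, where its share was nearly constant. The mean engrailed share differed by −12.2 percentage points (N/D/S minus N/D), less than the pooled SD of 23.0 points within lines, and by 9.04 points without N/D replicate 1. Because these are bulk samples, fewer cells of a type and less RNA per cell cannot be told apart.

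**Figure D2:**
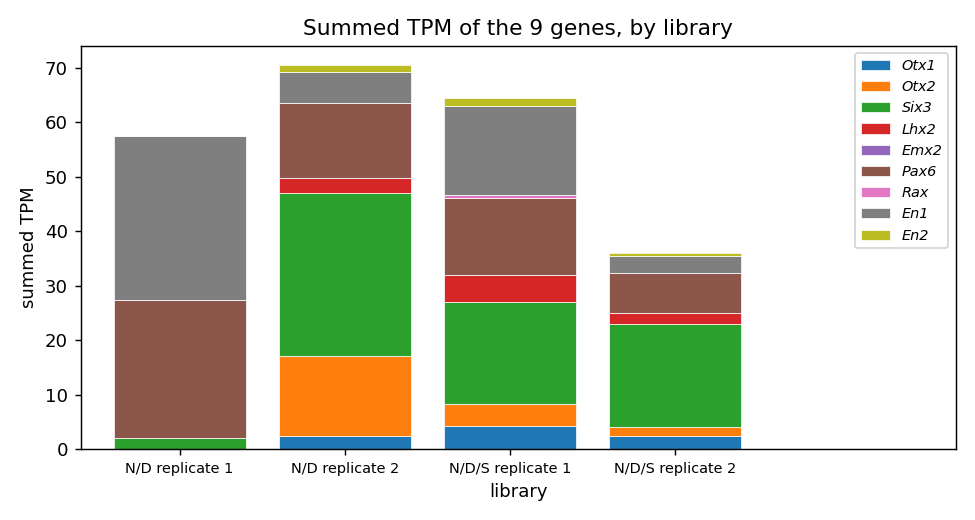
Summed TPM of the 9 factors in each library, with 1 color per gene and bars from 0. En1 and Pax6 fill most of the N/D replicate 1 bar, whereas Six3 is the largest part in the other 3 libraries.

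None of the members passed the threshold between the lines. Of the 7 tested, 0 were higher and 0 lower in N/D/S at an adjusted p under 0.05 from limma, beside 0% of all genes in each direction. At an unadjusted p under 0.05, the count was 0 of 7 members, beside 0.0617% of all genes. Otx1, Six3, Lhx2 and En2 had fold changes above 0, and Otx2, Pax6 and En1 below 0. Their median log2 fold change was 0.45, against 0.26 for all genes tested, and the latter was −0.29 without N/D replicate 1 but 0.88 when N/D replicate 2 was left out. With quantile normalization the median of the members changed sign to −0.37, against −0.05 for all genes, En2 changed sign with it, and the other 6 tested members kept theirs. The intervals reached from −3.75 to 4.11 on the log2 scale, so changes of several-fold in either direction were not detectable with 2 libraries per line. Without N/D replicate 2, when the spread came from the N/D/S pair alone, 2213 genes were called higher and 160 lower across all genes, 0 of them members.

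**Figure D3:**
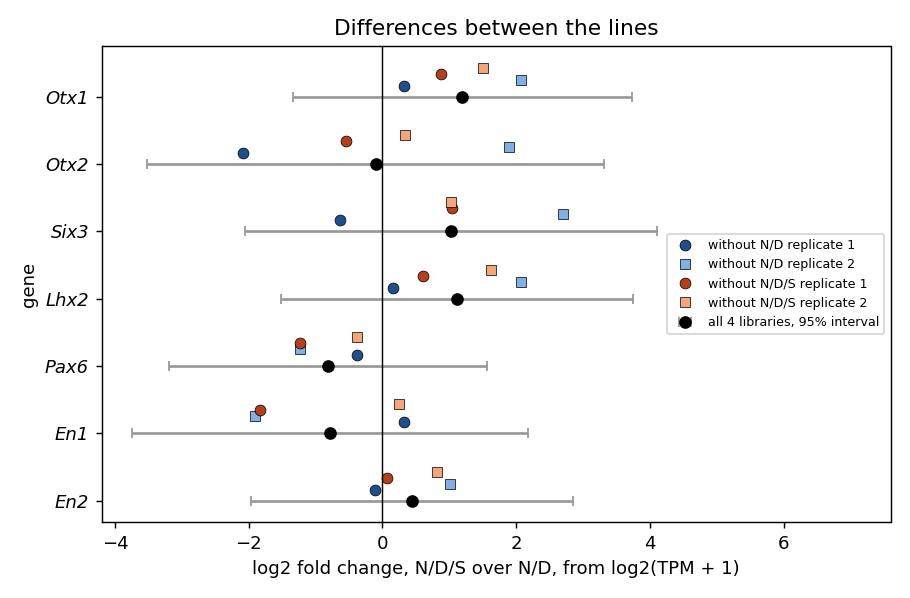
Log2 fold change, N/D/S relative to N/D, for the 7 factors tested, from log2(TPM + 1). Black points are the fit to all 4 libraries with 95% intervals, and colored points above them are the values with the named library left out. Every interval spans 0, and without N/D replicate 1 the points for Six3, En1 and En2 cross 0.

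Other factors of each territory set the members in context, from lists of genes known for a region. In the telencephalon list, 5 of 11 genes were tested and 0 were called in either direction. Nr2f1, which is found in both forebrain and hindbrain, was at 57.9 and 3.10 TPM in N/D/S, against 62.6 and 22.7 TPM in N/D, in replicate order, so that both libraries numbered 1 were above both numbered 2, as for En1.

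Of the 6 eye field and hypothalamic factors named here, all but Otp were listed at or near 0 in N/D replicate 1. Six6, a relative of Six3, was at 4.78 and 40.2 TPM in N/D/S, against 0.00409 and 61.5 TPM in N/D. Vax1, a ventral forebrain and optic stalk factor, was at 7.06 and 26.7 TPM in N/D/S, 32.8 TPM in N/D replicate 2 and was listed at 0 in N/D replicate 1. Vax2 was at 3.98 and 4.07 TPM in N/D/S, 6.53 TPM in N/D replicate 2 and was also listed at 0 there. All 3 tested genes of the eye field list had both libraries numbered 2 above both numbered 1, beside 14.7% of all genes tested. So did 4 of the 5 tested of the hypothalamus list. In the hypothalamus list Nkx2-2 was at 7.14 and 25.1 TPM in N/D/S, 11.9 TPM in N/D replicate 2 and was listed at 0 in N/D replicate 1, while Otp, a factor of neuroendocrine neurons, was at 9.32 and 0.0358 TPM in N/D/S, against 5.76 and 0.395 TPM in N/D. Hmx2 was at 1.72 and 7.07 TPM in N/D/S, 6.46 TPM in N/D replicate 2 and was listed at 0 in N/D replicate 1. In the thalamus and prethalamus list, Tcf7l2, a thalamic factor, was at 5.76 and 12.3 TPM in N/D/S, against 16.9 and 7.65 TPM in N/D. Irx3 was at 12.0 and 1.08 TPM in N/D/S, against 0.0194 and 4.90 TPM in N/D, and Dbx1 was at 5.64 and 0.479 TPM in N/D/S, 5.74 TPM in N/D replicate 2 and was listed at 0 in N/D replicate 1. None of these lists, including the thalamus and prethalamus list with 4 of 9 genes tested, held a gene called in either direction.

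Some boundary and hindbrain factors were measured beside En1 in N/D replicate 1, the library with the most En1, while 8 of the 13 tested genes of the midbrain and boundary list and 5 of the 7 of the hindbrain list were listed at 0 there, beside 26.1% of all genes tested. Counting untested genes too, 13 of 21 and 9 of 12 were at 0, beside 61.6% of all shared symbols. Those at 0 included the boundary signals Fgf8 and Wnt1, which had 4.703 and 12.45 TPM in N/D replicate 2. Gbx2, which positions the midbrain-hindbrain boundary from its hindbrain side, was at 30.2 and 4.54 TPM in N/D/S, against 52.2 and 13.8 TPM in N/D. Gbx2 thus had the library order of En1, with N/D replicate 1 the highest and N/D/S replicate 2 the lowest. Nr4a2, known in midbrain dopamine neurons, was at 17.0 and 0.0150 TPM in N/D/S, against 28.0 and 6.47 TPM in N/D, again in that order. Hoxb2, a hindbrain Hox gene, was at 30.4 and 3.74 TPM in N/D/S, against 51.5 and 2.43 TPM in N/D.

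The order was not shared by all genes of these lists. Fgf18, a growth factor of the boundary, was at 31.4 and 2.74 TPM in N/D/S, against 5.81 and 6.89 TPM in N/D. Fev, a factor of serotonin neurons, was at 2.82 and 38.9 TPM in N/D/S, 21.8 TPM in N/D replicate 2 and was listed at 0 in N/D replicate 1. Of the 13 tested genes of the midbrain and boundary list, 3 had both libraries numbered 1 above both numbered 2 and 4 the reverse. Over all genes tested, the shares were 14.8% and 14.7%. In the hindbrain list the counts were 2 and 3 of 7. None of the tested genes of either list was called in either direction, with median log2 fold changes of −0.23 and 0.52.

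**Figure D4:**
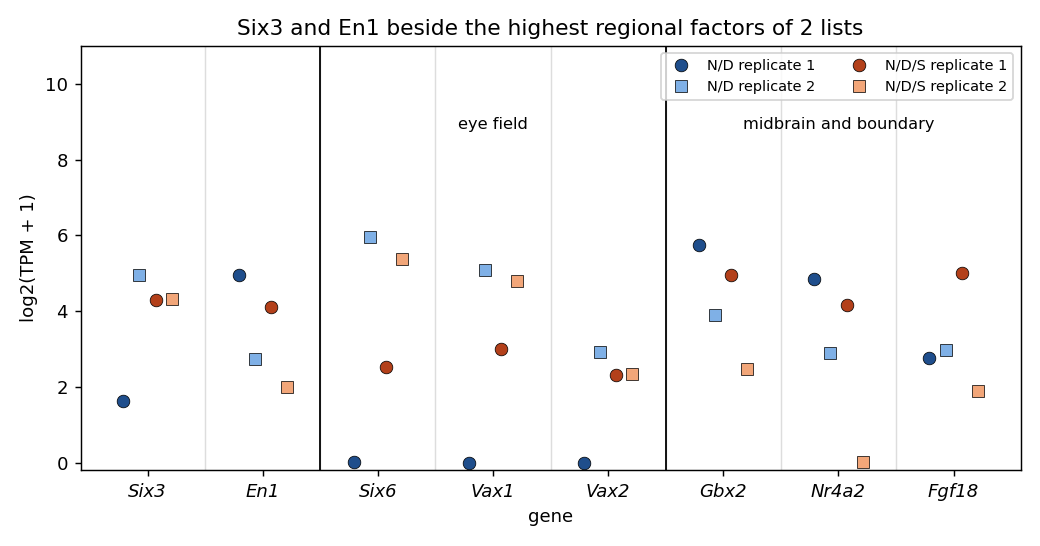
Levels of Six3 and En1 beside the 3 genes with the highest mean TPM in the eye field list and in the midbrain and boundary list, as log2(TPM + 1) in each library. Gbx2 and Nr4a2 show the library order of En1, and Six6, Vax1 and Vax2 are at or near 0 in N/D replicate 1.

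Partner proteins of the members, which include the LIM cofactor Ldb1, Groucho corepressors of the Tle family and the Pbx cofactors of engrailed, were taken as a list. Of 15 such genes all were tested and 0 were called, with a median log2 fold change of 0.14. Their summed level was 1061 TPM in N/D replicate 1 and 1392 to 1606 TPM in the others. None was listed at exactly 0, but in N/D replicate 1 the corepressor Tle2 had 0.00611 TPM and the cofactor Ldb2 had 0.0351 TPM. The corepressor Tle5 was at 250.4 and 576.0 TPM in N/D/S, against 84.9 and 475.6 TPM in N/D. Of the proteins that stabilize LIM cofactors, Ssbp4 was at 233.0 and 376.5 TPM in N/D/S, against 328.8 and 311.9 TPM in N/D, and Ssbp3 was at 367.2 and 118.2 TPM in N/D/S, against 148.9 and 239.0 TPM in N/D. Genes that report Wnt activity had 7 of 9 tested and 0 called. Nkd1 was at 7.05 and 31.7 TPM in N/D/S, 15.8 TPM in N/D replicate 2 and was listed at 0 in N/D replicate 1, and Axin2 was at 2.37 and 10.8 TPM in N/D/S, against 3.90 TPM in N/D replicate 2 and 0 in N/D replicate 1. Lef1 was at 1.04 and 3.97 TPM in N/D/S, against 0.0489 and 7.12 TPM in N/D. For 6 of the 7 tested, both libraries numbered 2 lay above both numbered 1, beside 14.7% of all genes tested.

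Several marker lists of other cell types also divided the libraries by replicate number. The 5 pluripotency genes summed to 0.247 TPM in N/D replicate 1 and 3.60 TPM in N/D/S replicate 1, against 184.3 and 292.4 TPM in N/D and N/D/S replicate 2. The 6 glial genes summed to 0 and 2.27 TPM against 82.7 and 45.8 TPM in the same order, and the 5 mesenchymal genes to 0.0431 and 8.27 TPM against 38.7 and 22.7 TPM. Pou5f1, the defining pluripotency factor, was listed at 0 in N/D replicate 1 and had 0.0881 TPM in N/D/S replicate 1, against 7.55 and 19.5 TPM in N/D and N/D/S replicate 2. The 9 progenitor genes summed to 463.3 to 1226 TPM, highest in N/D replicate 2, where Fabp7 alone had 906.5 TPM. Sox2, Top2a, Slc1a3 and Mki67 were also highest there. Vim and Hes1 were instead highest in N/D replicate 1, Nes in N/D/S replicate 1 and Hes5 in N/D/S replicate 2. The 6 excitatory neuron genes, led by Slc17a6, summed to 17.4 and 19.3 TPM in N/D and N/D/S replicate 1. In replicate 2 they summed to 3.49 and 1.28 TPM in N/D and N/D/S. The 4 blood and vessel genes summed to 5.21 to 38.8 TPM, the most in N/D replicate 1. There Pecam1 alone had 38.75 TPM, while Cdh5 and Hba-a1 were listed at 0 and Ptprc had 0.00979 TPM. The part of these cell types in the levels of the 9 factors was not tested.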

How the data were processed

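Bulk poly-A RNA-seq of sorted tdTomato+ neurons was analysed for 4 libraries, 2 per line. The authors deposited one table per library with a TPM value per gene symbol, made with kallisto 0.44.0 from paired-end reads, and the submitters' notes name GRCm38. The transcriptome release, the way transcripts were combined into genes and any scaling between libraries are not given in the sources used here. TPM keep no read counts, so depth is unknown and no counting interval is given.

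Tables were joined on symbol, after 26 rows per table whose symbols had become dates were left out. Genes that reached 1 TPM in 2 or more libraries were fitted with limma 3.58.1 in R 4.3.3 on log2(TPM + 1), N/D/S against N/D without covariates, with Benjamini-Hochberg adjustment over the 12975 genes and a threshold of 0.05. A fold change on this scale understates the change of low genes. An exact permutation test of 2 libraries against 2 cannot go below 0.333 and was not used. The fit was tested on simulated data first, with a pass condition only at a spread smaller than the median residual SD of 1.03 in these data. That test does not show what the fit detects at the measured spread. Sequences, positions and 31-base stretches came from GENCODE M21 (GRCm38), and older symbols were matched through RefSeq (Aes as Tle5). The antisense genes of Six3, Otx2, Emx2 and Pax6 were looked up, but none was among the 34968 symbols shared by all libraries, so their levels are not given. The homeobox was located in the transcript with the longest coding sequence by its conserved WF motif.

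Members and gene lists were chosen with earlier results of these data known. Named beside the members are the 3 genes of each region, partner and Wnt list with the highest mean TPM, any that passed the threshold, and the 3 genes nearest to the highest member. The cell type markers named, as well as Tle2, Ldb2, Fgf8 and Wnt1, were chosen after their values were seen. These markers were Tubb3, Dlx1, Dlx5, Slc32a1, Sp9, Pou5f1, Slc17a6, and all progenitor and blood and vessel genes. Some genes that this rule would name are not reported here. The alternatives tried were a pseudocount of 0.1 or 0.5, a natural log with 0.5 after the study's sleuth, no filter, a minimum of 1 TPM in all 4 libraries, scaling by median of ratios, upper quartile and quantile scaling, a variance trend, the replicate number as a block, and each library left out in turn.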

Additional observations from a re-analysis of the deposited data

How the results depend on the processing

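In all, 154 alternative values of 12 results were computed under 14 settings. The number of members past the adjusted threshold was 0 under each. Over all genes, the variance trend called 5 higher and 1 lower, and with a library left out the counts ranged from 0 to 2213 higher and from 0 to 160 lower, the most without N/D replicate 2, where the lone N/D library is assumed to vary like the N/D/S pair. The lowest unadjusted p of a member from limma, 0.0189, was that of Six3 in that fit.

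Of 94 alternative values of single members, 10 changed sign, and the cause was not tested. Otx2 was at 0.20 with a pseudocount of 0.5 or the natural log and 1.17 with a pseudocount of 0.1, and En2 was at −0.37 with quantile normalization. With a library left out, Otx2 ranged from −2.09 to 1.89, Six3 from −0.64 to 2.70, Otx1 from 0.32 to 2.07, Lhx2 from 0.15 to 2.07, En1 from −1.90 to 0.32 and En2 from −0.11 to 1.01. The members' median was −0.37 with quantile normalization and −0.79 when at least 1 TPM was required in every library, which left Six3, Pax6 and En1, and ranged from −0.11 to 1.89 with a library left out. The difference in engrailed share ranged from −33.5 to 9.04 percentage points. With quantile normalization Otx1 was at 0.11 and Lhx2 at 0.42. Otx1, Lhx2 and Pax6 kept their sign in every alternative that gave a value. Over all genes, the median log2 fold change was 0.26. It was −0.05 with quantile normalization, 0.14 with upper quartile scaling, 0.02 when low genes were kept and −0.15 with at least 1 TPM in every library. Leaving out a library of N/D gave −0.29 for replicate 1 and 0.88 for replicate 2, and leaving out one of N/D/S gave 0.02 for replicate 1 and 0.57 for replicate 2.

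Deviations from the line means correlated at 0.02 between same-numbered libraries over all genes, and the labels give the number no meaning, so the libraries were not treated as pairs. Same-numbered tables did have equal row counts (35197 for number 1 and 35204 for number 2), and whether a number marks a shared batch was not tested. With the replicate number as a block, 0 genes were called, 9 genes had an unadjusted p under 0.05 against 8 without it, and the members' median stayed at 0.45. Depth is unknown, so whether a value of 0 reflects depth was not tested.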
